A study of Homo sapiens with 12 samples.

Results

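Oxidative phosphorylation is carried out by 5 protein complexes in the inner membrane of the mitochondrion, and the genes described here encode their subunits. The subunits were chosen by gene symbol alone: probe sets whose symbol starts with NDUFA, NDUFB, NDUFC, NDUFS or NDUFV and a number, with SDHA to SDHD, with UQCR, with COX4 to COX8 or with ATP5. Of 21448 probe sets on the array, 78 matched. One of them, NDUFV1-DT, names a divergent transcript beside NDUFV1 and no subunit. Its values lay between 3.04 and 3.84 on the log2 scale on the 12 arrays, a level typical of unexpressed genes, and it passed no test. The other 77 probe sets, each with its own symbol, were counted as 31 subunits of complex I, 3 of complex II, 8 of complex III, 17 of complex IV and 18 of complex V. Those of complex V include its inhibitor ATP5IF1 and the read-through gene ATP5MF-PTCD1. Those of complex III include both UQCRH and its near-identical copy UQCRHL. CYC1, also a subunit of complex III, does not match these symbols and was read with the other genes of the pathway. NDUFS1, NDUFS8, NDUFA3, NDUFC2, SDHB, UQCRFS1, NDUFA4, NDUFA4L2, ATP5F1E, ATP5MK and the read-through gene NDUFC2-KCTD14 were among those not analysed here, as were the 13 subunits encoded by mitochondrial DNA.

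The cells were H1975 and PC-9, human lung adenocarcinoma lines whose growth is driven by mutant EGFR, the receptor of epidermal growth factor. All 12 arrays held cells that had survived osimertinib, an inhibitor of that receptor, at 0.5 µM for 1 week, called tolerant here and collected at day 8. In each line 3 arrays held tolerant cells and 3 held tolerant cells after 48 h with 100 µM SK-216, an inhibitor of plasminogen activator inhibitor 1 known here by its code name. For the SK-216 samples, the source name has naive cells, whereas the title, description and treatment text have tolerant ones. The labels describe no tolerant cells kept for the same 48 h without SK-216, so compound and time cannot be told apart. The labels do not state that the 3 arrays of a group are separate cultures, and p-values then measure the spread of these arrays alone, possibly a technical one.

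Electrons from NADH enter the chain at complex I and those from succinate at complex II, which is also an enzyme of the tricarboxylic acid cycle. Complex III passes them to cytochrome c and complex IV to oxygen, and complexes I, III and IV move protons across the membrane. Complex V, ATP synthase, lets the protons flow back and makes ATP. The subunits measured here are encoded in the nucleus, and the transcription factors NRF1, GABP (an ETS factor) and YY1 are known to act on many of their promoters. Cancer cells that outlive a targeted drug have in several settings been described as relying on respiration.

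The promoters shown are those of subunits on which the results turn, NDUFV2, COX6B1, ATP5MC1 and UQCR10, with ATP5F1C and COX5B added because they hold NRF1 letters. Each is the 250 bases before the gene's start, from RefSeq on GRCh38.p14, read 5′ to 3′ on the gene's strand, and capitals mark motif matches.
NDUFV2, chr18:9102449-9102698, plus strand: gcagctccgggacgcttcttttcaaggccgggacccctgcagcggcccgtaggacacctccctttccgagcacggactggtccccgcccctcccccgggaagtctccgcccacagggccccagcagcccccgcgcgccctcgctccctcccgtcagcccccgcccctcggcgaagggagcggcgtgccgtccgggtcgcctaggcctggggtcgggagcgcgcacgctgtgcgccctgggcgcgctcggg
COX6B1, chr19:35648073-35648322, plus strand: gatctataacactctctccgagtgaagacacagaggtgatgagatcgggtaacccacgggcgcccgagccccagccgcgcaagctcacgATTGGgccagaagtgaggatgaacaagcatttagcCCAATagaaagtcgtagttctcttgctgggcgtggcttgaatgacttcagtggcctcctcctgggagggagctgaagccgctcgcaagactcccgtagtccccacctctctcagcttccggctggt
ATP5MC1, chr17:48892537-48892786, plus strand: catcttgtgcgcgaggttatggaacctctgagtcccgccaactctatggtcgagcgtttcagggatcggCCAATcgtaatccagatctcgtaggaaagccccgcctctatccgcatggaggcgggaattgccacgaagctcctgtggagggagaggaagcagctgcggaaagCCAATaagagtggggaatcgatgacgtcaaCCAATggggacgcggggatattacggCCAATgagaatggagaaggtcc
UQCR10, chr22:29767119-29767368, plus strand: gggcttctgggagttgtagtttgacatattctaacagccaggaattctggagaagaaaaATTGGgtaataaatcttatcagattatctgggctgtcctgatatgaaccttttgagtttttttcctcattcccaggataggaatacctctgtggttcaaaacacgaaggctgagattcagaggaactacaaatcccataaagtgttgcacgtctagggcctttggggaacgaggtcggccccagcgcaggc
ATP5F1C, chr10:7787927-7788176, plus strand: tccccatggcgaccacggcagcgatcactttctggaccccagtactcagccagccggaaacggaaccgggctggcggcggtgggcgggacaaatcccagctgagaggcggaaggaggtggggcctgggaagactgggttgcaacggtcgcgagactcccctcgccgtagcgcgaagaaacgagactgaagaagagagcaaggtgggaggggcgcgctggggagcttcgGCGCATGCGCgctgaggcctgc
COX5B, chr2:97645812-97646061, plus strand: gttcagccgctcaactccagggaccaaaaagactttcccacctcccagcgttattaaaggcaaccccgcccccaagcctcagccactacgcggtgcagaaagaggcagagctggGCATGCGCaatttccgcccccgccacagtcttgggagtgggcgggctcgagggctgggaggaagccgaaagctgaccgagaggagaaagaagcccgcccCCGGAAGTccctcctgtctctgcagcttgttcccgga
In COX6B1 the capitals are 2 CCAAT boxes, in ATP5MC1 4 and in UQCR10 1, some of them on the reverse strand as ATTGG. ATP5F1C holds 2 NRF1 matches that overlap on opposite strands. COX5B holds 1 NRF1 match and 1 ETS match, and NDUFV2 holds none of the motifs searched in these 250 bases.

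Motifs were searched on both strands from 250 bases before to 50 after the start, in 62 subunits with an entry and in 14250 genes with a named probe set and an entry. The NRF1 letters GCATGCGC were found in 12 of 62 subunit promoters (19.4%), against 4.25% of all. The ETS letters CCGGAAGT stood in 8 (12.9%, against 6.24%) and the YY1 letters AAGATGGC in 9 (14.5%, against 3.96%). CCAAT was in 22 (35.5%, against 36.4%) and TATAAA in 7 (11.3%, against 9.41%). At least 1 of the NRF1, ETS and YY1 motifs was present in 24 of the 62, a count that was not made for all genes. NRF1 letters stood in 5 of 28 promoters of complex I, 1 of 2 of complex II and 0 of 6 of complex III. They stood in 2 of 14 of complex IV and 4 of 12 of complex V. For ETS letters the counts were 1, 1, 3, 2 and 1 in complexes I to V. These numbers are small, and differences between complexes were not tested. A match is a description of these letters and not a binding site.

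Signals are log2 values as deposited, and a log2 change of 1 is a doubling. The 348 olfactory receptor probe sets, whose genes are not expected in lung cells, had their median at 3.61 and their 95th percentile at 5.06, which serves as the upper end of the unexpressed range. By their mean over all arrays 74 of 77 subunits lay above it and 62 were at 10 or more, which 5017 of all 21448 probe sets were. COX4I2, COX6B2 and COX8C, isoforms of complex IV, lay within the unexpressed range. Of 9 epithelial and lung markers 8 were above that range in at least 1 group, with KRT8 near 16 throughout and EPCAM at 8.18 in tolerant H1975 and 15.29 in tolerant PC-9. The lung markers NKX2-1 and SFTPB counted through 1 group each and only just, at 5.10 in tolerant H1975 and 5.19 in tolerant PC-9. NAPSA was within the unexpressed range in every group, and so were PTPRC of leukocytes, PECAM1 of endothelium and DCN of fibroblasts. However, 2 of 4 leukocyte, 2 of 4 endothelial and 3 of 4 fibroblast markers measured exceeded it in some group. Some did so clearly: group means were 11.6 to 12.26 for CD68, 7.9 to 9.02 for COL1A2 and 6.25 to 8.95 for COL1A1. CDH5 stood at 7.47 in tolerant PC-9 and 7.1 after SK-216. The highest group means of CD3E, PDGFRB and VWF were 5.54, 5.99 and 5.22. Within groups, r between arrays ran from 0.993 to 0.995 over all probe sets.

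In H1975 cells, 3 of the 77 subunits fell after SK-216 and 0 rose: NDUFV2 of complex I, COX6B1 of complex IV and ATP5MF of complex V. Of all probe sets 2.35% fell and 1.44% rose by the same test, limma with an adjusted p below 0.05, so the share of subunits called, 3 of 77, was not far from that background. The fitted changes leaned one way: 68 of 77 subunits were below 0 and 9 above. Below 0 were 48.1% of all probe sets and 53.3% of those with a mean of at least 10. The median over subunits was -0.17 on the log2 scale, 11.3% lower, against 0.01 over all probe sets and -0.02 over probe sets with a mean of at least 10. In bulk RNA, a smaller share of cells with a transcript and less of that transcript per cell cannot be told apart.

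NDUFV2, an iron-sulfur subunit of the module of complex I that oxidises NADH, read 10.94, 10.65 and 10.93 on the tolerant H1975 arrays and 10.32, 10.44 and 10.11 after SK-216. All 3 treated arrays were below all 3 tolerant arrays. The change was -0.55 ± 0.14 (log2 ± standard error, adjusted p = 0.0262), 1.46-fold lower. In PC-9 the same gene read 10.99, 11.39 and 11.38 before and 11.25, 11.47 and 11.71 after, with overlap, a fitted 0.22 ± 0.14 (adjusted p = 0.603).

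COX6B1, a subunit of complex IV on the side of the intermembrane space, read 11.57, 11.30 and 11.52 in tolerant H1975 and 11.00, 11.14 and 10.88 after SK-216. The groups did not overlap, and the change was -0.46 ± 0.12 (adjusted p = 0.0333), 1.37-fold lower. In PC-9 it read 11.90, 12.30 and 11.97 before and 11.94, 12.10 and 12.19 after, with a fitted change of 0.02 ± 0.12.

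ATP5MF, a subunit of the membrane part of ATP synthase, read 13.94, 13.90 and 14.28 in tolerant H1975 and 13.43, 13.87 and 13.38 after SK-216. The groups did not overlap, but the nearest arrays, at 13.87 and 13.90, almost met. The change was -0.48 ± 0.12 (adjusted p = 0.0179), 1.39-fold lower. Its sequence is shared with the read-through gene ATP5MF-PTCD1, whose own probe set had a fitted change of -0.09 ± 0.22 with values from 5.27 to 6.02, so the source of the signal is uncertain to that extent. In PC-9, ATP5MF read 13.78, 14.05 and 13.77 before and 13.98, 14.00 and 13.96 after.

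These 3 calls rested on particular arrays. Without tolerant H1975 array 3 or SK-216 array 3 none of the subunits passed, and without SK-216 array 1 none of these 3 passed, though 1 other subunit did. Without tolerant array 1 only ATP5MF did. Without the variance trend all 3 were lost (adjusted p = 0.133 for NDUFV2, 0.163 for COX6B1 and 0.185 for ATP5MF). Without tolerant array 2 the count was 5 and without SK-216 array 2 it was 6. The highest adjusted p with 1 array left out was 0.139 for NDUFV2, 0.157 for COX6B1 and 0.136 for ATP5MF.

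**Figure D1:**
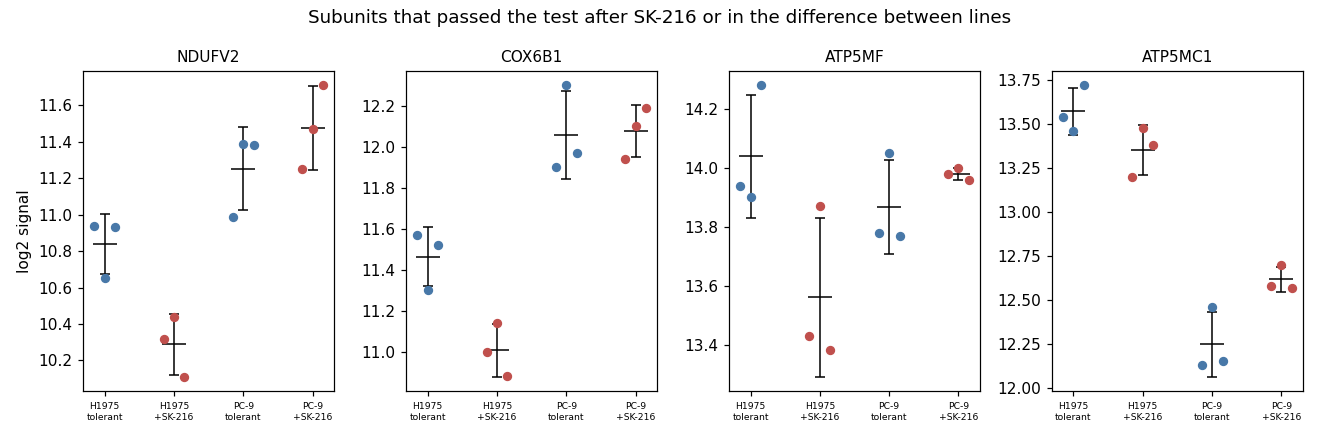
Log2 signal of NDUFV2, COX6B1, ATP5MF and ATP5MC1 on each of the 12 arrays, by group, with the mean and standard deviation of 3 arrays in black. The H1975 SK-216 points of the first 3 genes lie below their tolerant points, and the PC-9 SK-216 points of ATP5MC1 lie above theirs.

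By complex, the median change in H1975 was -0.18 for complex I, -0.18 for complex II, -0.19 for complex III, -0.13 for complex IV and -0.15 for complex V. Without SK-216 array 3 complex IV was at -0.03 and complex V at -0.05, and complex II ran from -0.31 without tolerant array 2 to -0.10 without tolerant array 3. In complex I, 29 of 31 subunits were below 0, in complex III 8 of 8 and in complex V 17 of 18. In complex IV the 10 subunits found in most tissues were all below 0, with a median of -0.16, while 5 of 7 tissue isoforms and relatives were above 0. Of those above 0, COX4I2 and COX8C lay within the unexpressed range. COX6A2 (0.01 ± 0.21) and COX7A1 (0.12 ± 0.22) were dim, and only COX7A2L (0.14 ± 0.09) had a mean of 10 or more. The standard deviation of the changes among subunits was 0.15 and the median standard error of a change 0.12, so single subunits differed from each other by little more than their own error.

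For 18 subunits the 3 SK-216 arrays of H1975 were all below the 3 tolerant arrays, and for 0 they were all above. Over all probe sets 9.56% were all below and 8.95% all above. Of the 5017 with a mean of at least 10, 825 were all below and 605 all above. The 18 were 9 of complex I (NDUFV2, NDUFS4, NDUFS5, NDUFS6, NDUFA2, NDUFA6, NDUFB2, NDUFB6 and NDUFB11), SDHC, UQCRC1 and UQCRC2, COX4I1 and COX6B1, and ATP5F1A, ATP5F1C, ATP5MF and ATP5PD. Outside the 3 calls, the smallest adjusted p were those of ATP5F1C, the central shaft of ATP synthase, at -0.36 ± 0.11 (adjusted p = 0.0626), of SDHC at -0.33 ± 0.10 (adjusted p = 0.0693) and of NDUFS5 at -0.28 ± 0.09 (adjusted p = 0.0946). At an unadjusted p under 0.05, 19 subunits were lower and 0 higher, where 14.2% of all probe sets passed in either direction. Of the 5017 probe sets with a mean of at least 10, 1294 passed, 783 of them lower and 511 higher. Set against these, the subunits stood apart in direction and not in the number passing.

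The lowest and highest change in each complex marks the range. In complex I they were NDUFV2 and NDUFA8 (0.07 ± 0.15), in complex II SDHC and SDHD (0.01 ± 0.14), and in complex III UQCR11 (-0.33 ± 0.12) and UQCRH (-0.10 ± 0.14). In complex IV they were COX6B1 and COX4I2 (0.21 ± 0.21), which lies in the unexpressed range. In complex V they were ATP5MGL (-0.53 ± 0.24) and ATP5F1B (0.09 ± 0.09), the catalytic subunit. ATP5MGL was dim, with a mean of 6.24 over all arrays, and its H1975 groups overlapped. In complex II the iron-sulfur subunit was not analysed here, none of the others passed in H1975, and differences between them were not tested. SDHA, the flavoprotein that oxidises succinate, read 12.41, 12.04 and 12.46 before and 12.23, 12.05 and 12.08 after, with overlap. SDHC, a membrane anchor, read 12.52, 12.38 and 12.46 before and 12.05, 12.17 and 12.15 after, without overlap. SDHD, the other anchor, read 10.77, 10.70 and 11.19 before and 11.09, 10.91 and 10.70 after, with overlap.

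In PC-9 cells, 0 of 77 subunits passed the test after SK-216, where 0.373% of all probe sets rose and 0.0699% fell. The fitted changes leaned the other way from those in H1975: 63 of 77 were above 0 and 14 below. Above 0 were 49.5% of all probe sets and 59.4% of those with a mean of at least 10. The median over subunits was 0.13, 9.18% higher, against -0.00 over all probe sets and 0.04 over those with a mean of at least 10. At an unadjusted p under 0.05, 10 subunits were higher and 1 lower, where 10.9% of all probe sets passed in either direction. Of the 5017 probe sets with a mean of at least 10, 914 passed, 697 of them higher and 217 lower.

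The medians in PC-9 were 0.08 for complex I, 0.17 for complex II, 0.18 for complex III, 0.08 for complex IV and 0.13 for complex V. In complex I, 26 of 31 subunits were above 0, in complexes II and III all 3 and all 8, in complex IV 11 of 17 and in complex V 15 of 18. They leaned on single arrays. Without tolerant PC-9 array 1 the median of complex I was 0.04, of complex III 0.04 and of complex IV -0.03, and without tolerant array 2 they were 0.16, 0.27 and 0.14.

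For 16 subunits all 3 SK-216 arrays of PC-9 were above the 3 tolerant arrays, and for 0 below, where 8.21% and 6.80% of all probe sets were. Of the 5017 with a mean of at least 10, 817 were all above and 300 all below. Complex I gave NDUFA11, NDUFA12, NDUFB1, NDUFB10 and NDUFB11, complexes II and III SDHC, UQCRC1 and UQCR10. Complex IV gave COX5A, COX7A2, COX7A2L, COX7C and COX8A, and complex V the subunits ATP5MC1, ATP5MC2 and ATP5MG. COX7A2L is a relative of COX7A2 known for joining complexes III and IV, and its fitted change was above 0 in both lines, 0.14 ± 0.09 in H1975 and 0.19 ± 0.09 in PC-9.

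The ends of the range in PC-9 were as follows. Complex I ran from NDUFB6 (-0.13 ± 0.18) to NDUFB11 (0.35 ± 0.14), complex II from SDHD (0.06 ± 0.14) to SDHA (0.24 ± 0.12) and complex III from UQCR11 (0.06 ± 0.12) to UQCR10 (0.37 ± 0.15). Complex IV ran from COX6A2 (-0.49 ± 0.21), the muscle isoform, to COX5A (0.36 ± 0.12). Complex V ran from ATP5MF-PTCD1 (-0.16 ± 0.22) to ATP5MC1 (0.37 ± 0.11), which had the smallest adjusted p of the subunits in PC-9, 0.16.

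**Figure D2:**
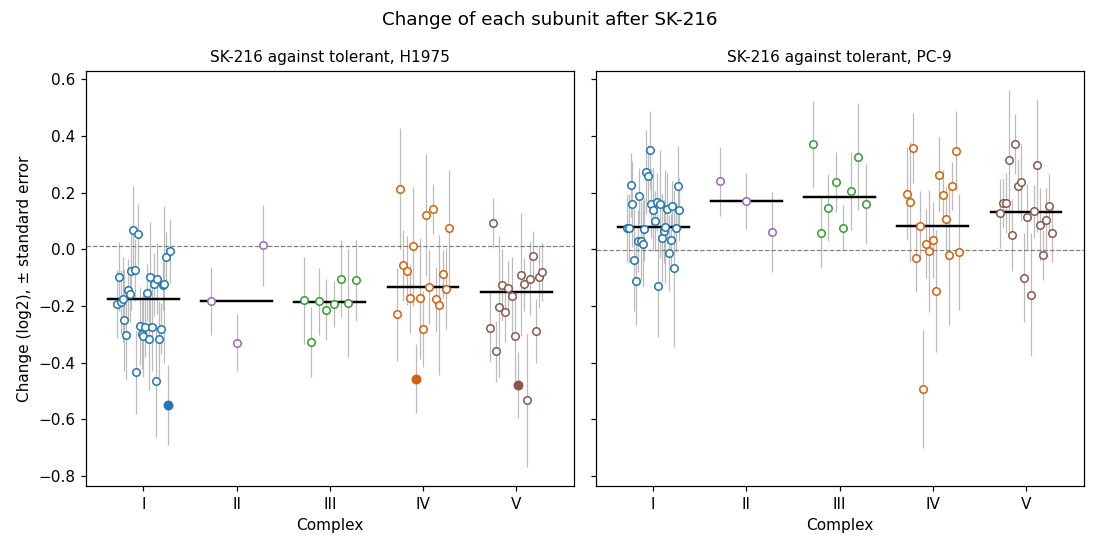
Fitted log2 change after SK-216 of each subunit in H1975 (left) and PC-9 (right), with its standard error, grouped by complex. Filled points passed the test, black bars are medians and the dashed line is the median of all probe sets. The bars lie below the line in all 5 complexes in H1975, between -0.19 and -0.13, and above it in PC-9, between 0.08 and 0.18.

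Array by array, the lean was weaker than the counts. Each array's level of a complex was taken as the median over its subunits of the deviation from the mean of that line. Over all 77 subunits these levels were 0.15, -0.02 and 0.13 on the tolerant H1975 arrays and -0.04, 0.02 and -0.19 after SK-216. In PC-9 they were -0.18, 0.06 and -0.05 before and 0.07, 0.08 and 0.02 after. In both lines the groups overlapped, since tolerant array 2 lay within the range of the treated arrays.

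The same arrays stood out in most complexes. Tolerant PC-9 array 1 was the lowest of its line in every complex, from -0.14 in complex II to -0.39 in complex III, and tolerant H1975 array 2 was the lowest of its group in every complex. SK-216 array 3 was the lowest H1975 array in complexes I, IV and V, at -0.22, -0.16 and -0.21. Complex IV of PC-9 was the only case of 10 without overlap, with -0.15, 0.03 and -0.01 before and 0.08, 0.05 and 0.05 after. The medians over all probe sets lay within 0.01 of 0 on every array.

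**Figure D3:**
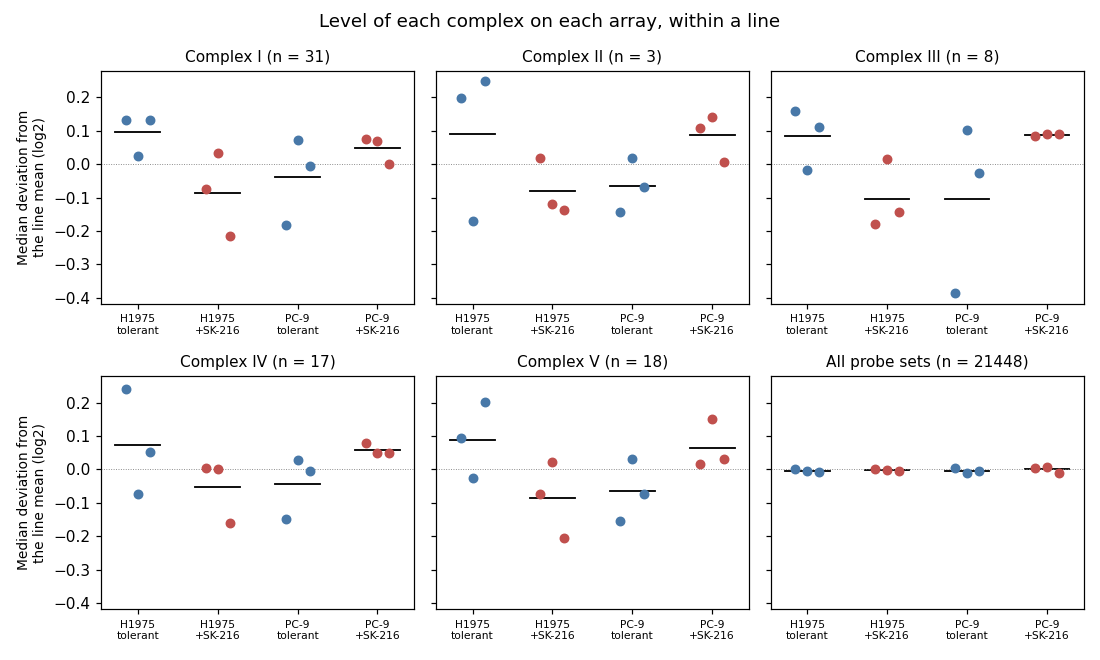
Level of each complex on each array, as the median over its subunits of the log2 deviation from the mean of that cell line, with all 21448 probe sets in the last panel. Points are arrays, bars are means of 3 arrays, and n is the number of probe sets. Tolerant and SK-216 arrays overlap in every complex of H1975 and in complexes I, II, III and V of PC-9.

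The difference of the changes, PC-9 minus H1975, uses the same 12 arrays. It passed the test for 1 of 77 subunits, ATP5MC1, where 1.09% of all probe sets passed as higher and 0.331% as lower. ATP5MC1 encodes the c subunit of the rotor ring of ATP synthase, as do ATP5MC2 and ATP5MC3. It read 13.54, 13.46 and 13.72 in tolerant H1975 and 13.20, 13.48 and 13.38 after SK-216, with overlap. In PC-9 it read 12.13, 12.46 and 12.15 before and 12.58, 12.70 and 12.57 after, without overlap. The change was -0.22 ± 0.11 in H1975 (adjusted p = 0.351) and 0.37 ± 0.11 in PC-9 (adjusted p = 0.16). The difference was 0.59 ± 0.15 (95% interval 0.28 to 0.90, adjusted p = 0.0476).

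That call stood at the edge of the threshold. It was lost with any of 9 of the 12 arrays left out, all but tolerant array 2 and SK-216 array 2 of H1975 and tolerant array 2 of PC-9, with an adjusted p of up to 0.143, and under quantile normalization (0.48, adjusted p = 0.124). The other c-ring genes had differences of 0.36 ± 0.13 (ATP5MC2, adjusted p = 0.222) and 0.40 ± 0.20 (ATP5MC3, adjusted p = 0.395). NDUFV2 had the next smallest adjusted p at 0.77 ± 0.20 (adjusted p = 0.0536), followed by ATP5MF at 0.59 ± 0.17 (adjusted p = 0.0797) and SDHC at 0.50 ± 0.14 (adjusted p = 0.0825).

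The fitted difference was above 0 for 71 of 77 subunits. Above 0 were 49.2% of all probe sets and 61.4% of those with a mean of at least 10. The median over subunits was 0.28, against -0.01 over all probe sets and 0.07 over those with a mean of at least 10. At an unadjusted p under 0.05, 29 subunits passed, all above 0, where 12.7% of all probe sets passed in either direction. Of the 5017 probe sets with a mean of at least 10, 1093 passed, 774 of them above 0 and 319 below. Medians were 0.27, 0.42, 0.36, 0.26 and 0.31 for complexes I to V. A change below 0 in H1975 and above 0 in PC-9 was fitted for 57 of 77 subunits (74.0%), against 23.6% of all probe sets, and the opposite for 3, against 25.7%. SDHC, UQCRC1 and NDUFB11 had arrays without overlap in both lines, lower in H1975 and higher in PC-9, as 0.709% of all probe sets did. UQCRC1, a core subunit of complex III, read 12.02, 12.11 and 12.10 before and 11.76, 11.94 and 11.89 after in H1975. In PC-9 it read 11.22, 11.28 and 11.34 before and 11.44, 11.70 and 11.41 after. Across the 77 subunits, which share these arrays, the changes in the lines were related by r = -0.13 and rho = -0.09.

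Between the tolerant lines, subunits differed far more than after SK-216. Of 77, 20 were higher in PC-9 and 30 lower, where 21.3% of all probe sets were higher and 22.7% lower. Among probe sets with a mean of at least 10 the shares were larger, 35.3% higher and 39.4% lower. Of the 62 subunits at that level, 17 were higher (27.4%) and 27 lower (43.5%). The median was -0.04, while fitted differences of single subunits ran from -3.62 to 3.65. Arrays of the 2 lines did not overlap for 22 subunits higher and 31 lower in PC-9, where 25.0% and 25.3% of all probe sets did not. Of the 5017 with a mean of at least 10, 1840 were higher without overlap and 2056 lower. Complex I had 8 higher and 15 lower (median -0.25), complex II 0 and 1 (-0.11), complex III 2 and 4 (-0.16), complex IV 6 and 3 (0.15) and complex V 4 and 7 (-0.19). Without tolerant PC-9 array 1 the median of complex III was 0.02 and that of complex II 0.01. Of the 50 calls, 7 were lost with 1 array left out, those of NDUFV2, NDUFS3, NDUFC1, UQCRQ, COX5A, COX8A and COX6B2.

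Complex III held the largest difference toward H1975. UQCR10, a small subunit of complex III, read 12.73, 12.19 and 12.56 in tolerant H1975 and 8.53, 9.13 and 8.95 in tolerant PC-9. Its difference was -3.62 ± 0.15 (adjusted p = 7.73e-16), 12.3-fold lower in PC-9. UQCR11, another small subunit, was 5.27-fold lower (-2.40 ± 0.12), reading 13.92, 13.56 and 14.02 against 11.26, 11.65 and 11.40. The core subunits UQCRC1 and UQCRC2 went apart, UQCRC1 lower by -0.80 ± 0.11 and UQCRC2 higher by 0.55 ± 0.08. UQCRH and its near-identical copy UQCRHL, whose probe sets cannot be taken as separate, differed by 0.08 ± 0.14 and 0.14 ± 0.19 and passed no test.

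In complex I, NDUFB1 of the membrane arm was 6.81-fold lower in PC-9 (-2.77 ± 0.15), at 11.68, 11.49 and 11.82 against 8.86, 8.85 and 8.98. NDUFB8, often used as a marker of assembled complex I, was 5.12-fold lower (-2.36 ± 0.15). NDUFS7, a core iron-sulfur subunit near the quinone site, read 8.02, 7.28 and 7.72 in H1975 and 4.81, 6.16 and 5.13 in PC-9 (-2.31 ± 0.28). Its lowest PC-9 array lay within the unexpressed range. NDUFV1, the NADH-binding core subunit, was 3.36-fold lower in PC-9 (-1.75 ± 0.09), while its partner NDUFV2 was higher by 0.41 ± 0.14 (adjusted p = 0.0195). The accessory subunits NDUFA10 (1.83 ± 0.12, 3.56-fold) and NDUFS5 (1.80 ± 0.09, 3.49-fold) were higher in PC-9. NDUFS5 read 13.53, 13.57 and 13.51 in H1975 and 15.27, 15.43 and 15.32 in PC-9.

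In complex V the 4 analysed subunits of the catalytic F1 part were all lower in PC-9. ATP5F1A differed by -1.13 ± 0.12, ATP5F1B by -0.63 ± 0.09, ATP5F1C by -0.74 ± 0.11 and ATP5F1D by -1.54 ± 0.25. ATP5F1B, the subunit where ATP is made, read 15.87, 15.83 and 15.88 against 15.12, 15.31 and 15.26. The genes of the c subunit did not go together. ATP5MC1 was lower by -1.33 ± 0.11 and ATP5MC2 by -0.75 ± 0.09, while ATP5MC3 was higher by 1.81 ± 0.14 (3.51-fold), at 11.98, 11.49 and 11.73 in H1975 against 13.24, 13.75 and 13.65 in PC-9. ATP5IF1, the inhibitor of ATP hydrolysis by the enzyme, read 10.85, 10.91 and 11.09 against 11.03, 10.86 and 10.68 and passed no test in the 4 comparisons.

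**Figure D4:**
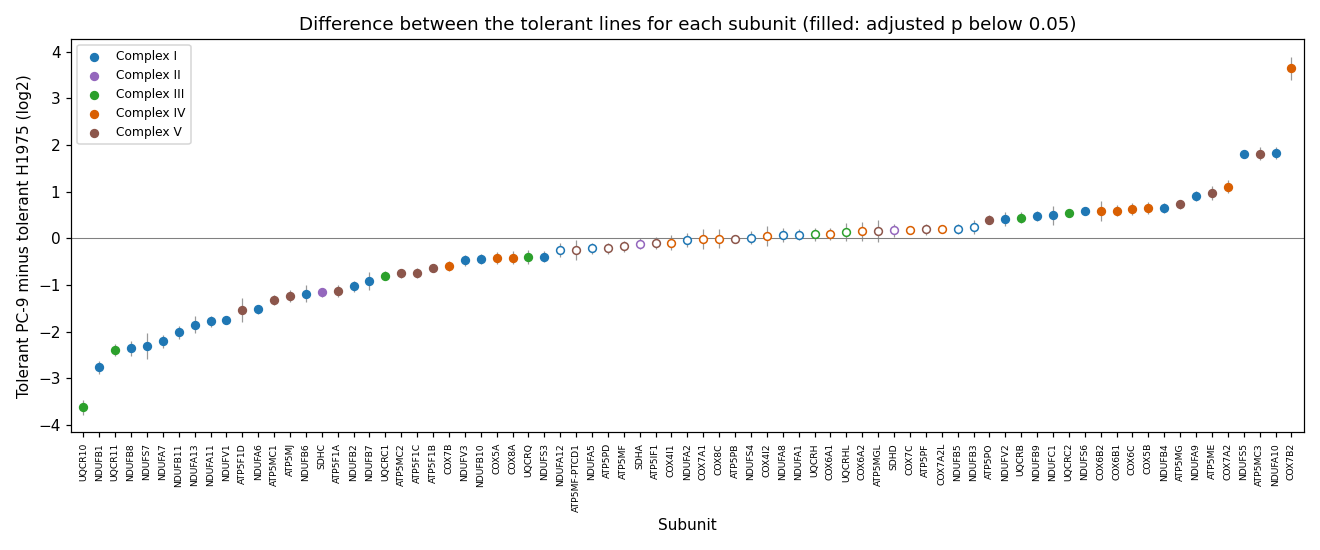
Fitted log2 difference, tolerant PC-9 minus tolerant H1975, of the 77 subunits in order of size, coloured by complex, with standard errors. Filled points passed the test. Differences run from -3.62 for UQCR10 to 3.65 for COX7B2.

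Complex IV exists in tissue forms, and most of its tissue isoforms were low. COX7B2, the testis form of COX7B, was the exception, with 4.80, 4.26 and 3.91 in tolerant H1975, within the unexpressed range, and 7.69, 8.12 and 8.10 in tolerant PC-9. The fitted difference was 3.65 ± 0.25 (adjusted p = 5.87e-12), and since the H1975 level was not above unexpressed genes no fold is given. After SK-216, COX7B2 read 4.37, 3.72 and 4.29 in H1975 and 8.17, 8.01 and 7.67 in PC-9. The common form COX7B was lower in PC-9 by -0.59 ± 0.11.

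COX6A2 and COX7A1, the muscle forms, lay between 5.53 and 7.06 on all arrays and did not pass the test between lines. COX4I2 and COX8C did not leave the unexpressed range, nor did COX6B2, although it passed the test (0.59 ± 0.21, adjusted p = 0.0274). Their common partners each had a mean above 10. COX4I1, COX6A1 and COX8A differed by -0.09 ± 0.16, 0.10 ± 0.12 and -0.42 ± 0.14, and of these only COX8A passed. COX7A2, the common partner of COX7A1, was 2.16-fold higher in PC-9 (1.11 ± 0.13), and COX5B and COX6C by 0.65 ± 0.12 and 0.63 ± 0.13.

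Subunits of some chromosomes differed together between lines, a description made after the values were seen and not tested. Chromosome 19 holds 10 of the 77, and 7 were lower in PC-9: UQCR11, NDUFS7, NDUFA7 (-2.21 ± 0.14), NDUFA13 (-1.85 ± 0.18), NDUFA11 (-1.78 ± 0.11), ATP5F1D and NDUFB7 (-0.91 ± 0.19). COX6B1 (0.59 ± 0.12) and COX6B2 were higher, and COX7A1 differed by -0.01 ± 0.22. Of all 1256 named probe sets of chromosome 19, 35.7% were lower and 14.6% higher, and the 260 with a mean of at least 10 had a median of -0.66. Chromosome 10, with NDUFB8 and ATP5F1C, and chromosome 14, with NDUFB1 and ATP5MJ (-1.23 ± 0.13), had medians of -0.69 and -0.68 over such probe sets. Not every chromosome showed this. UQCR10 lies on chromosome 22, where that median was -0.09. On chromosome 12 the 5 subunits had a median of -0.25 against 0.29 over such probe sets, and on chromosome 17 the 2 subunits, ATP5MC1 and ATP5PD, -0.77 against -0.06. The part of these chromosome-wide shifts in the differences of subunits was not tested.

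The other genes of the pathway were read from lists of assembly factors, carriers and regulators. After SK-216, 0 of 118 members passed in PC-9 by limma, where 22 were higher and 1 lower at an unadjusted p under 0.05, against 10.9% of all probe sets in either direction. In H1975, 3 fell and 0 rose, against 2.35% and 1.44% of all probe sets, a share near the background. Fitted changes were below 0 for 70 of the 118 in H1975 and above 0 for 85 in PC-9. HIGD2A, a factor in complex IV assembly, read 11.16, 11.33 and 11.81 in tolerant H1975 and 10.80, 11.00 and 10.89 after SK-216 (-0.54 ± 0.15, adjusted p = 0.0385). In PC-9 it read 10.68, 11.14 and 10.88 before and 11.26, 11.32 and 11.50 after (0.46 ± 0.15, adjusted p = 0.207). The groups overlapped in neither line, and the difference of the changes was 1.00 ± 0.21 (adjusted p = 0.0109). That difference passed with any 1 of the 12 arrays left out but not without the variance trend of the fit (adjusted p = 0.114).

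PDK2, a kinase that shuts off pyruvate dehydrogenase, changed by -0.59 ± 0.13 in H1975 (adjusted p = 0.00769), and OGDH, an enzyme of the tricarboxylic acid cycle, by -0.36 ± 0.10 (adjusted p = 0.0457). The call of PDK2 was lost without tolerant array 2 (adjusted p = 0.0636) or SK-216 array 1 (adjusted p = 0.0654), that of OGDH with 7 of the 12 arrays left out in turn (adjusted p up to 0.189) and that of HIGD2A in H1975 with 6 (up to 0.267). Without the variance trend none of these 3 passed (adjusted p = 0.0792 for PDK2, 0.227 for OGDH and 0.175 for HIGD2A). With each line fitted alone OGDH (0.0764) and HIGD2A (0.0539) were lost, and OGDH also with the replicate block (0.0852) and with centred arrays (0.0531).

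Fitted changes by list are a description, and differences between lists were not tested. Of 11 genes of coenzyme Q synthesis, 8 were below 0 in H1975 (median -0.14) and 9 above 0 in PC-9 (0.15). In H1975, 10 of 12 measured tricarboxylic acid cycle genes and 8 of 10 cytochromes c and carriers were below 0 (medians -0.08 and -0.05), but 10 of 19 complex I assembly factors (-0.02) and 11 of 24 of complex IV (0.01). In PC-9, 10 of 12 cycle genes and 8 of 10 carriers were above 0 (medians 0.14 and 0.17), with 14 of 19 complex I assembly factors (0.14) and 13 of 24 of complex IV (0.04). CYC1, cytochrome c1, is a subunit of complex III left out of the subunit counts because its symbol does not match. Its fitted changes were -0.03 ± 0.10 in H1975 and 0.28 ± 0.10 in PC-9. Those of CYCS, cytochrome c, were 0.10 ± 0.11 and 0.18 ± 0.11. Neither passed.

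Of the 17 measured regulators of mitochondrial transcription and biogenesis, 0 passed in either line after SK-216 by limma. At an unadjusted p under 0.05, 1 was higher in H1975 and 0 lower, and 4 were higher in PC-9 and 1 lower. Of all probe sets 14.2% passed in H1975 and 10.9% in PC-9, in either direction. PPARGC1A, the coactivator that drives mitochondrial biogenesis, read between 4.30 and 5.53 on all arrays, at the edge of the unexpressed range (0.42 ± 0.26 in H1975 and 0.35 ± 0.26 in PC-9). TFAM, which packages mitochondrial DNA, read between 13.46 and 13.87, with fitted changes of -0.04 ± 0.09 and -0.19 ± 0.09. Between the tolerant lines CYC1 was higher in PC-9 by 1.22 ± 0.10 and CYCS lower by -0.72 ± 0.11.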

How the data were processed

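RNA, 250 ng per sample, was measured on 12 arrays of 1 colour, 3 in each of 4 groups. The authors deposited log2 signals, with 1 value for each probe set on each array. Per the submitters' processing notes they used Transcriptome Analysis Console. Version, summarisation and normalization remain unknown (not given in the sources used here). Values ran from 2.19 to 18.61 and array medians from 6.56 to 6.62, and nothing further was done to them. Precision is limited by the number of arrays. Of 21448 probe sets, 17709 had a gene symbol in the platform annotation and 3739 none.

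Means of the 4 groups were fitted to every probe set with limma 3.58.1 in R 4.3.3, by lmFit and eBayes with a variance trend (residual degrees of freedom 8, median prior ones 15.0). Its 4 contrasts were SK-216 against tolerant cells of H1975 and of PC-9, PC-9 minus H1975 for these changes, and tolerant PC-9 against tolerant H1975. Tests were two-sided, and p-values were adjusted by Benjamini-Hochberg over all probe sets, with calls at an adjusted p below 0.05. The fit was tested on simulated data. Promoters and gene starts came from RefSeq, GRCh38.p14, with the first listed start of a gene.

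Members, gene lists and tests were chosen with earlier results of these data known. Named genes are those with a call, the lowest and highest change after SK-216 in each complex and line, the 5 largest differences each way between lines, the SDH, catalytic, inhibitor and isoform subunits, and in other lists those with a call after SK-216, PPARGC1A, TFAM, CYCS and CYC1. Others were named after their values were seen: those without overlap, the next smallest adjusted p, the c-ring and chromosome 19 genes and COX7A2L. Within lines, same-numbered samples did not deviate together (r from -0.09 to 0.01 in H1975 and 0.02 to 0.03 in PC-9), so numbers were not taken as pairs. Alternatives were eBayes without a trend, each line alone, the replicate block, quantile normalization, centring, leaving out the dimmest 30% of probe sets, and leaving out each array. Background correction and slide could not be varied from these values. Figures were drawn with matplotlib 3.10.9.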

Additional observations from a re-analysis of the deposited data

Results flagged for a closer look

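The change after SK-216 differed between the lines, by the test of the difference itself in limma, for ATP5MC1, the c subunit gene of ATP synthase, with PC-9 minus H1975 at 0.59 (log2, adjusted p = 0.0476). It also differed for HIGD2A, a complex IV assembly factor, at 1.00 (adjusted p = 0.0109). With 3 arrays a group, no formal outlier test was run.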

How the results depend on the processing

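The number of subunits called after SK-216 in H1975, 3 as reported, was 0 without the variance trend, 5 with the dimmest 30% of probe sets left out, and 0 to 6 with 1 array left out. The difference between lines, 1 call as reported, gave 0 without the trend, with the replicate block, with quantile normalization and with centred arrays, 3 without the dimmest probe sets, and 0 to 4 with 1 array left out. In PC-9 the count was 0 under every alternative run. With the replicate number as a block, the calls were 2 in H1975, where COX6B1 was lost (adjusted p = 0.0539), and 49 between lines in place of 50. Without the trend, HIGD2A was also lost in the difference (adjusted p = 0.114). With 1 array left out, the medians that moved beyond the spread between replicates were those of complex IV in H1975 (-0.17 to -0.03), complexes III and IV in PC-9 (0.04 to 0.27 and -0.03 to 0.14), complex IV in the difference (0.12 to 0.34) and complex III between lines (-0.29 to 0.02). Quantile normalization and centring changed the sign of no complex median after SK-216, and no called gene changed sign under any alternative. Calls between lines numbered 46 to 50 with 1 array left out, and 4 of 50 were lost without the trend. The causes of these shifts were not tested. With a median standard error of 0.12, changes as small as the medians given could not be called for single subunits.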
